A study of Mus musculus with 10 samples.

Results

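Polymerase II promoter peaks were followed at 10 immediate early and stress response genes of mouse Th1 cells: Ier2, Ier3, Ier5, Gadd45a, Gadd45b, Gadd45g, Btg2, Klf6, Klf10 and Srf. The genes were chosen by name, as every promoter peak that the authors assigned to one of these symbols, and 9 of the 10 had such a peak, among 10419 genes with an assigned promoter peak in any library. Ier3 was the exception: the peak at its start was assigned by the authors to Flot1, the neighbouring gene, so it was found by its position and is described but not in the test of assigned peaks. RNA polymerase II was mapped by chromatin immunoprecipitation and sequencing (ChIP-seq) with the antibody 8WG16 (ab817), which recognizes the C-terminal repeats of the polymerase's largest subunit. The strain was Balb/c DO11.10 and the cells were primary Th1 cells in culture; this strain carries a transgenic T cell receptor against an ovalbumin peptide. All groups shared the same preparation: priming of CD4+ T cells towards Th1 with anti-CD3, anti-CD28, interleukin 12 and anti-interleukin 4, expansion with an interleukin 2 analogue, and a last day without it. There were 3 groups of 2 libraries: cells that were not restimulated (NR), and cells restimulated for 30 min or for 2 h by anti-CD3 coated on plates (5 µg/ml) together with anti-CD28 in solution (2.5 µg/ml).

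Immediate early genes are transcribed within minutes of a signal from transcription factors that are already in the cell, without new protein synthesis, and many are short genes with unstable transcripts. In T cells they follow T cell receptor and CD28 signals through MAP kinase, calcium and NF-kB pathways. Among the genes here are regulators of transcription and survival (the Ier genes), activators of the p38 and JNK stress kinase cascades (the Gadd45 genes), brakes on proliferation (Btg2) and DNA-binding factors (Klf6, Klf10 and Srf).

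The files hold peaks and no read counts, so the value compared was the length of DNA called as promoter peak and assigned to a gene, in bp. Libraries differed in depth. The lowest local background under a promoter peak was worth 0.659 fragments in NR replicate 1 and 5.92 in NR replicate 2, 1.57 and 4.67 fragments at 30 min, and 2.48 and 5.55 fragments at 2 h, so replicate 1 was the shallower library of each group. They held 9074 to 10680 promoter peaks over 8.73 to 18.2 Mb. Of 9 T cell and Th1 markers, 8 (among them Cd3e, Cd4, Tbx21 and Ifng) had a promoter peak in all 6 libraries and Cxcr3 had one in 2, with a summed length of 22173 to 23965 bp in NR, 29960 to 50899 bp at 30 min and 46371 to 48646 bp at 2 h. Of the markers of other cells, Cd8a, Cd79a, Ms4a1, Lyz2, Itgam, Csf1r, Ncr1 and Hbb-b1 had no peak in any library, and Cd8b1 had 314 to 576 bp in the 3 replicate 2 libraries. Of genes that mark other helper fates, Gata3 had a peak in 5 libraries and Foxp3 in none. The part of depth in the lengths below was not tested beyond the values given beside them.

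By assigned symbol, 9 of the 10 genes had a promoter peak in all 6 libraries, NR included, where 71.1% of the 10419 genes did. Whatever the assigned symbol, all 10 carried a promoter peak over their start in all 6 libraries. The share of all genes by that second rule was not counted. These 10 genes therefore differed in how far the called peak extended and not in whether there was one. The largest log2 change against NR among the 9 tested genes was at Gadd45b, whose peak covered the whole gene and its flanks in every restimulated library, against 24.6% and 21.4% of the gene in the NR libraries. Ier2, Ier5, Klf6 and Btg2 were, like Gadd45b, longer in bp in both restimulated groups than in NR without overlap, and Gadd45g was so at 2 h. Over all 9908 genes tested, 11.5% were longer without overlap at 30 min and 52.3% at 2 h. Gadd45a, Klf10 and Srf overlapped NR at both times. None of the 9 tested genes passed the limma test, at a Benjamini-Hochberg adjusted p under 0.05 over 9908 genes, in any comparison, and Gadd45b came nearest, with an adjusted p of 0.0638 at 30 min and 0.0512 at 2 h.

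The promoters of 8 of the 10 genes are in the RefSeq table (build GRCm38.p6), each from 250 bases before the start to 50 after it. Ier2 and Klf10 have no promoter there and were not searched for motifs. Those of Gadd45b and Klf6 are shown because these genes had a log2 change in peak length above 1 at both times against NR, that of Btg2 because it alone of the 8 held a cyclic AMP response element, and that of Srf because it alone held CArG boxes, the sequence that the SRF protein itself binds. Capitals mark CCAAT boxes, TATA boxes, the cyclic AMP response element and CArG boxes on either strand. The windows are chr10:80929841-80930140 (plus strand) for Gadd45b, chr13:5861239-5861538 (plus strand) for Klf6, chr1:134079106-134079405 (minus strand) for Btg2 and chr17:46556113-46556412 (minus strand) for Srf.
Gadd45b: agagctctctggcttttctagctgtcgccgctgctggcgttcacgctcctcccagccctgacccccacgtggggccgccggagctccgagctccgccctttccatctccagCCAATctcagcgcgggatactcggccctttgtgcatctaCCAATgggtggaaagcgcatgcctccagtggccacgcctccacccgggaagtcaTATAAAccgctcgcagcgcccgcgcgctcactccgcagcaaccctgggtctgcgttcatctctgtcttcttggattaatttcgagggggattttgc
Klf6: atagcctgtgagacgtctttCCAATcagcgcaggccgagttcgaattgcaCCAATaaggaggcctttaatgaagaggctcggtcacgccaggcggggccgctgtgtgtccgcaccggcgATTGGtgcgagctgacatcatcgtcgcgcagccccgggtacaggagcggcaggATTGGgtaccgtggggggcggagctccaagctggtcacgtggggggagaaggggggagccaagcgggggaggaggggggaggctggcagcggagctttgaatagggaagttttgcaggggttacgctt
Btg2: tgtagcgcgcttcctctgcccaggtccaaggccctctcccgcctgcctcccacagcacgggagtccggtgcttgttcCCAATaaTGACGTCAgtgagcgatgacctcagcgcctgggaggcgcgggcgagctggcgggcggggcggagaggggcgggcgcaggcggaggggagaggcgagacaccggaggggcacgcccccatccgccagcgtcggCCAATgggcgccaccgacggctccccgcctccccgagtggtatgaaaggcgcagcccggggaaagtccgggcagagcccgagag
Srf: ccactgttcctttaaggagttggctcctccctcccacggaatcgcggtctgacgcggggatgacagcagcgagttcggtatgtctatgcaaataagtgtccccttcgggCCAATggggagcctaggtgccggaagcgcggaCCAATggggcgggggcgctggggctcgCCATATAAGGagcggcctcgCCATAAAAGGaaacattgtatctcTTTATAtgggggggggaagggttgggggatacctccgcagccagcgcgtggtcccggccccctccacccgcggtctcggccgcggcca

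Each motif was searched on both strands, and no 2 matches of different motifs overlapped. CCAAT was found in 8 of 8 windows, against 37.4% of all 32851 RefSeq windows of this length, and the Sp1 motif GGGCGG in 7 of 8, against 35.7%. TATAAA was found in 3 of 8 against 13.6%, starting 46 bases before the start in Gadd45b and 27 before it in Gadd45g. The match in Srf, 38 before the start, reads TTTATA along the gene, with TATAAA on the opposite strand. Of the motifs tied to signal-dependent factors, the cyclic AMP response element TGACGTCA was found in Btg2 only among the 8. It lay 166 bases before the start, against 1.79% of all windows with a match. CArG boxes were found in Srf only among the 8, with matches 82 and 62 bases before the start, against 1.63%. The AP-1 motif TGACTCA was in 0 of 8, against 5.20%. A match is a description of these letters in these windows and not a bound site.

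**Figure D1:**
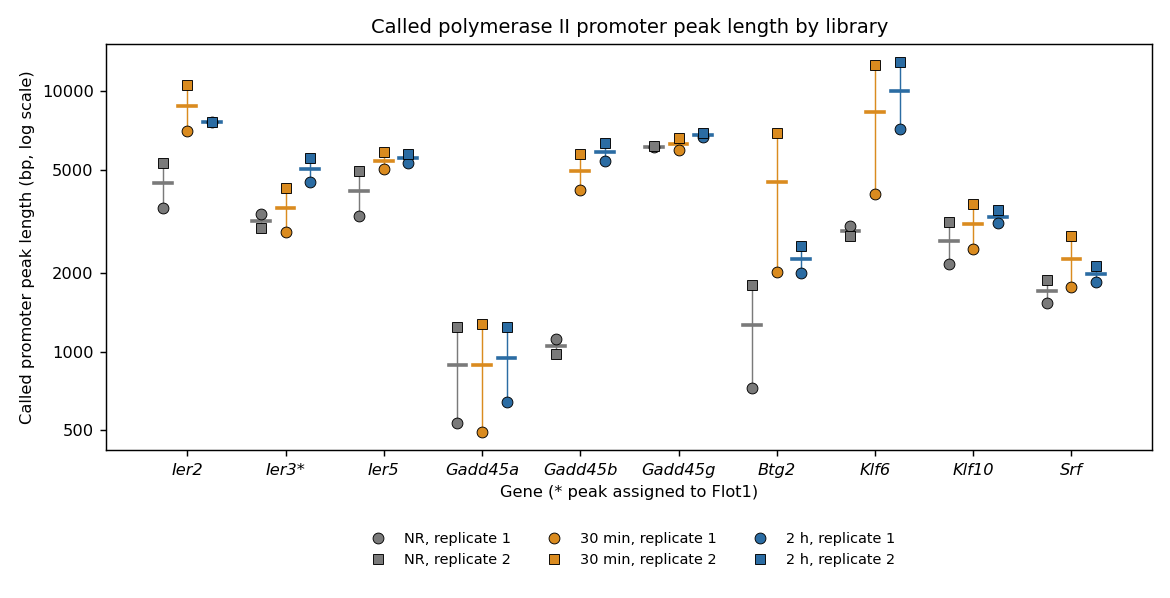
Called promoter peak length in bp (log axis) for each gene in the NR, 30 min and 2 h libraries; circles are replicate 1, squares replicate 2 and bars the mean of 2 libraries. Gadd45b sits between 4169 and 6336 bp in the 4 restimulated libraries, above 1116 and 980 bp in NR, while Gadd45g stays between 5930 and 6895 bp throughout.

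The Gadd45 proteins bind and activate the kinase MAP3K4 (MTK1), upstream of p38 and JNK, and Gadd45b and Gadd45g are known for their part in interferon gamma production by Th1 cells. At Gadd45b (chr10:80930091-80932204, plus strand, 2114 bp) the called length was 1116 and 980 bp in NR, 4169 and 5727 bp at 30 min, and 5383 and 6336 bp at 2 h. All 4 restimulated libraries were above both NR libraries. Within replicate number the length was 3.74 and 5.84 times that of NR at 30 min, and 4.82 and 6.47 times at 2 h. The NR lengths leave out a separate called peak past the gene's end, at a position that the restimulated promoter peaks ran over. After the median over genes had been subtracted from each library (centring), the log2 change was 1.96 at 30 min (standard error, SE, 0.22, adjusted p = 0.0638 by limma) and 1.90 at 2 h (SE 0.22, adjusted p = 0.0512). With 1 library left out the adjusted p ran between 0.0372 and 0.317 at 2 h and between 0.0419 and 0.226 at 30 min. It passed at 2 h without 30 min replicate 1 (0.0451) or 30 min replicate 2 (0.0372) and at 30 min without 30 min replicate 2 (0.0419), and did not pass without any of the other libraries. Called length does not measure an amount of polymerase. The share of cells with polymerase at a gene and the polymerase per cell cannot be told apart in these bulk libraries. The 2 h and 30 min libraries overlapped, with a log2 change of -0.06 (SE 0.22, adjusted p = 0.964) that was 0.25 without centring.

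The position of the called Gadd45b peak shows where the added length lay. In the 4 restimulated libraries a single peak ran through the gene, to 1264 and 2093 bp past its end at 30 min and 1806 and 2740 bp at 2 h. Each promoter peak is listed with a single summit, so no separate summit could be listed there. In NR the promoter peak reached 518 and 451 bp downstream of the start, which left most of the gene outside. A separate NR summit lay 306 and 187 bp past the gene's end, with a −log10 q (the authors' value for the peak in its own list) of 17.3 and 19.0. The peak of that summit was not a promoter peak, so it added nothing to the NR length. In the restimulated libraries the same position lay inside the promoter peak and was counted. The part of this in the ratios and log2 changes was not tested. On the upstream side the peak extended 597 and 528 bp in NR, 791 and 1520 bp at 30 min, and 1463 and 1482 bp at 2 h. The main summit stayed within 44 bp of the start in all 6 libraries.

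Gadd45g (chr13:51846675-51848474, plus strand, 1800 bp) was already covered in NR. Its called length was 6118 and 6156 bp in NR, 5930 and 6646 bp at 30 min, and 6695 and 6895 bp at 2 h. The 2 h libraries were the longest, by 1.094 and 1.120 times NR within replicate number, and the 30 min libraries spanned the NR values. Centred, its log2 change was -0.13 at 30 min (SE 0.29, adjusted p = 0.970) and -0.33 at 2 h (adjusted p = 0.655), and both were positive without centring, at 0.03 and 0.14. In every library the peak began 1762 to 1907 bp before the start and ended 2368 to 3188 bp past the gene's end.

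Gadd45a (chr6:67035096-67037407, minus strand, 2312 bp) had short peaks. Its called length was 531 and 1246 bp in NR, 492 and 1276 bp at 30 min, and 642 and 1246 bp at 2 h. The values split by replicate number, each replicate 1 having at most 642 bp and each replicate 2 at least 1246 bp, and the groups overlapped in each comparison. Its log2 change after centring was -0.19 at 30 min (SE 0.37, adjusted p = 0.946) and -0.36 at 2 h (adjusted p = 0.701), the last being 0.12 without centring. The peak also overlaps the long noncoding RNA gene E230016M11Rik, whole in each replicate 1 and over 1148 of 1246 bp in NR, 1153 of 1276 bp at 30 min and 1169 of 1246 bp at 2 h in replicate 2, and ChIP-seq does not tell strands apart.

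**Figure D2:**
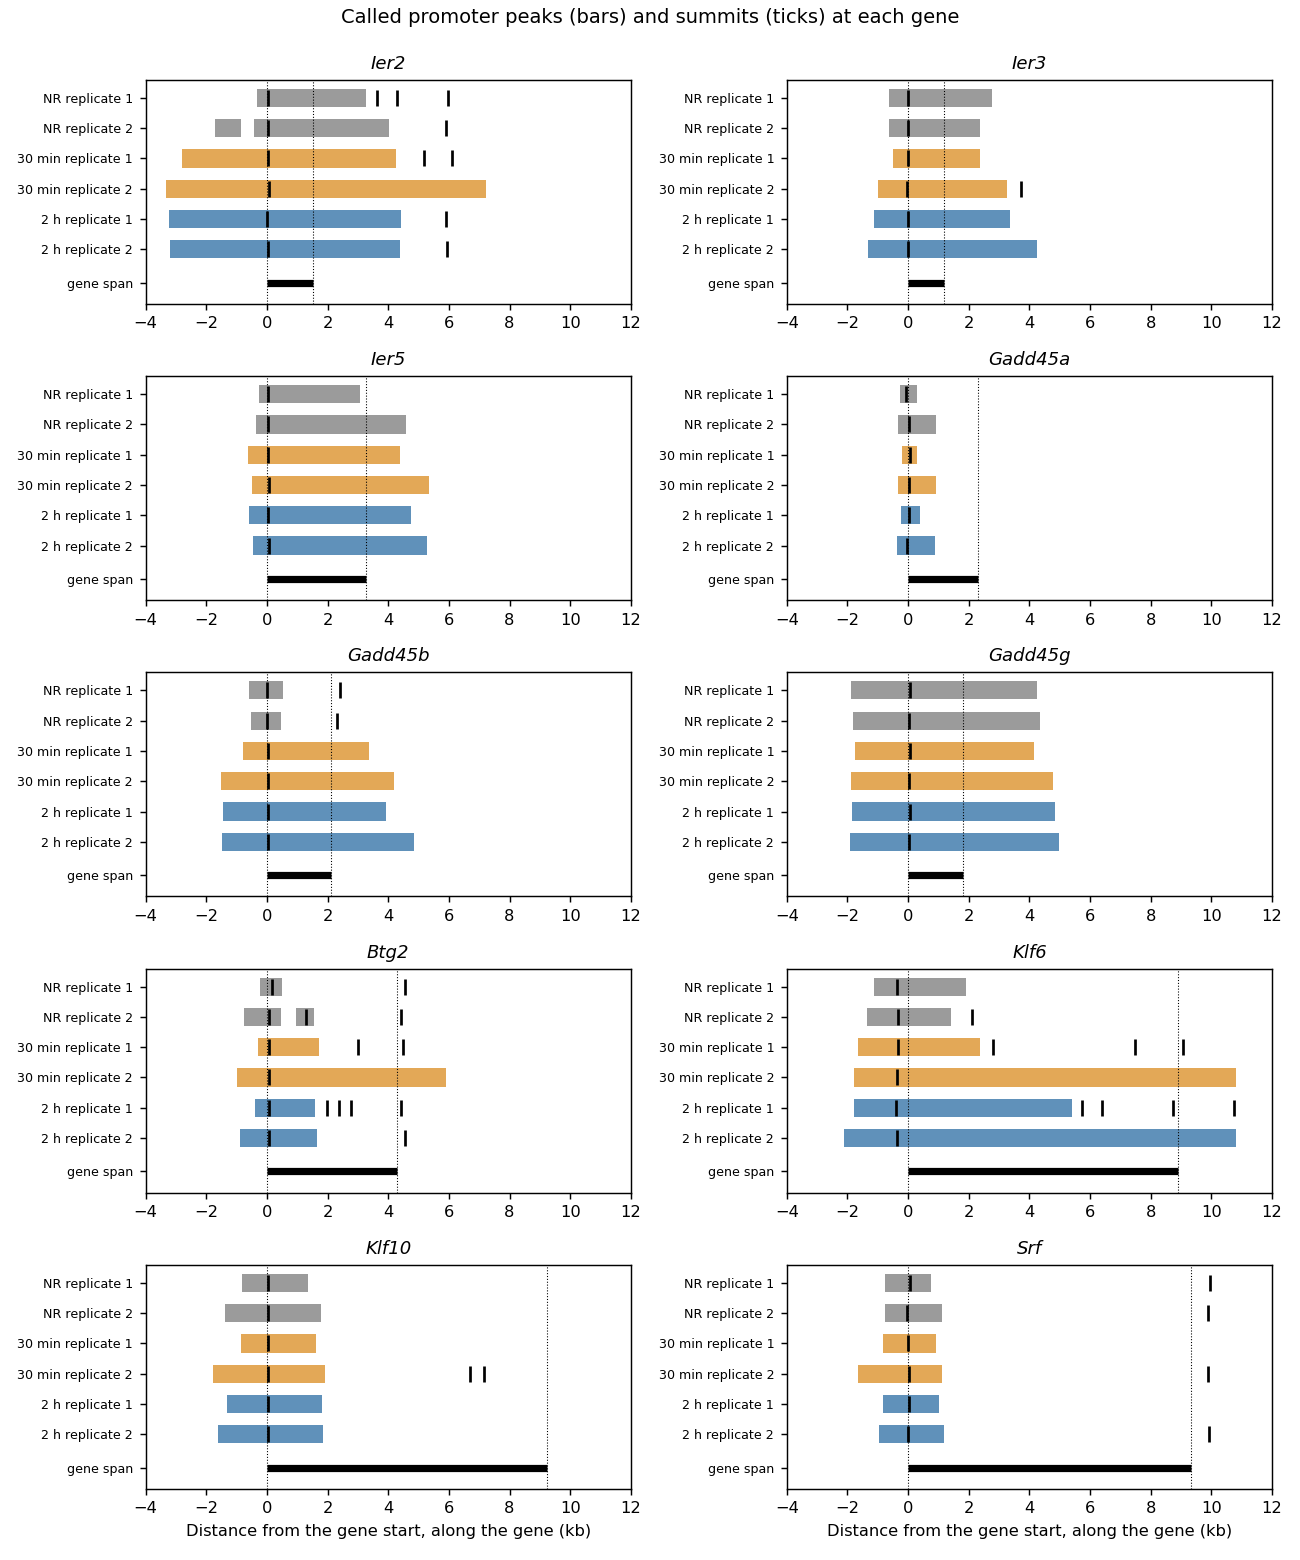
Called promoter peaks (bars) and peak summits (ticks) at each gene in each library, by distance from the gene's start in kb along the gene; the black bar is the gene span. The Gadd45b bars run past the gene's end in the 4 restimulated libraries only, Klf6 is covered whole in 30 min replicate 2 and 2 h replicate 2, and Ier2, Ier3 and Gadd45g are covered whole in all 6.

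The Ier genes are induced by growth factors and stress. IER2 is a short-lived regulator of transcription, IER3 (IEX-1) modulates apoptosis and NF-kB signalling, and IER5 takes part in activating the heat shock factor HSF1. At Ier2 (chr8:84661331-84662852, minus strand, 1522 bp) the called length was 3572 and 5309 bp in NR, 7056 and 10556 bp at 30 min, and 7636 and 7600 bp at 2 h. Both restimulated groups lay above NR without overlap, by 1.98 and 1.99 times within replicate number at 30 min and by 2.14 and 1.43 times at 2 h. The centred log2 change was 0.81 at 30 min (SE 0.23, adjusted p = 0.437) and 0.32 at 2 h (adjusted p = 0.596), and the 2 h value was -0.13 under quantile normalization. The added length lay outside the gene, which was covered whole in every library. Past the gene's end the peak reached 1735 and 2511 bp in NR, 2725 and 5703 bp at 30 min, and 2892 and 2877 bp at 2 h. It reached 315 and 424 bp upstream of the start in NR, 2809 and 3331 bp at 30 min, and 3222 and 3201 bp at 2 h. NR replicate 2 held a second peak of 852 bp in that upstream stretch, with its far edge 1706 bp before the start. Counting only DNA within 1000 bp of the gene span gave a log2 change of 0.09 at 30 min and -0.22 at 2 h.

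Ier5 (chr1:155096367-155099636, minus strand, 3270 bp) had 3326 and 4953 bp in NR, 5008 and 5833 bp at 30 min, and 5316 and 5744 bp at 2 h. The restimulated libraries were all above NR, the nearest pair being 5008 bp at 30 min and 4953 bp in NR. The difference was larger in the shallower replicate 1 (1.51 times at 30 min and 1.60 times at 2 h) than in replicate 2 (1.18 and 1.16 times). After centring, Ier5 had a log2 change of 0.24 at 30 min (SE 0.25, adjusted p = 0.810), which was -0.31 under quantile normalization, and -0.04 at 2 h (adjusted p = 0.951), which was 0.44 without centring. The peak covered the whole gene in 5 libraries and 93.5% of it in NR replicate 1.

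The peak over the start of Ier3 (chr17:35821713-35822911, plus strand, 1199 bp, RefSeq span) was assigned to Flot1, a membrane scaffold gene that begins downstream on the same strand. It measured 3380 and 2981 bp in NR, 2868 and 4266 bp at 30 min, and 4482 and 5557 bp at 2 h. The 2 h libraries were the longest and did not overlap those of NR or 30 min, while the 30 min values spanned the NR values. Its summit lay within 21 bp of the Ier3 start in all 6 libraries, and 756 to 2641 bp of the peak fell inside Flot1. Counted by position over all genes, the centred log2 change was -0.02 at 30 min (adjusted p = 1.00) and 0.16 at 2 h (adjusted p = 0.791, by limma), the last being -0.29 when only DNA near the gene span was counted.

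BTG2 binds the CCR4-NOT deadenylase, restrains proliferation and is a target of p53. At Btg2 (chr1:134074865-134079155, minus strand, 4291 bp) the called length was 724 and 1810 bp in NR, 2020 and 6910 bp at 30 min, and 2002 and 2552 bp at 2 h. The 1810 bp of NR replicate 2 joined 2 peaks, 1223 bp over the start and 587 bp further down the gene. With only the longest single peak of each gene, the centred log2 change against NR was 1.72 at 30 min and 0.70 at 2 h. Both restimulated groups lay above NR, by 2.79 and 3.82 times within replicate number at 30 min and by 2.77 and 1.41 times at 2 h. The 30 min libraries differed from each other by more than the replicates of NR or of 2 h. The 6910 bp peak of replicate 2 covered the gene whole and the 2020 bp peak of replicate 1 covered 40.0% of it. The centred log2 change was 1.46 at 30 min (SE 0.41, adjusted p = 0.437), 0.44 at 2 h (SE 0.41, adjusted p = 0.678) and -1.02 for 2 h against 30 min (adjusted p = 0.866). Btg2 did not pass with any 1 library left out, and its 2 h change was -0.0085 without NR replicate 1 and 0.88 without NR replicate 2. A separate summit 126 to 273 bp past the gene's end was present in 5 libraries, NR included, and in 30 min replicate 2 that position lay inside the one long peak. Only in 30 min replicate 2 did that position count towards the called length.

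KLF6 and KLF10 are zinc finger factors that bind GC-rich promoter DNA, and KLF10 is known as an early response gene to TGF-beta. At Klf6 (chr13:5861489-5870393, plus strand, 8905 bp) the called length was 3047 and 2781 bp in NR, 4017 and 12589 bp at 30 min, and 7191 and 12914 bp at 2 h. Both restimulated groups were above NR without overlap, by 1.32 and 4.53 times within replicate number at 30 min and by 2.36 and 4.64 times at 2 h. The 30 min replicates differed from each other by more than their mean differed from that of NR, and the longer library of each restimulated group was the deeper one. The centred log2 change was 1.10 at 30 min (SE 0.39, adjusted p = 0.567) and 1.22 at 2 h (SE 0.39, adjusted p = 0.324). The peak reached 1910 and 1415 bp downstream of the start in NR, 2358 and 10815 bp at 30 min, and 5417 and 10812 bp at 2 h. Separate summits lay further down the gene, 2121 bp from the start in NR replicate 2, 2813 and 7484 bp from the start in 30 min replicate 1 and 5736, 6383 and 8727 bp in 2 h replicate 1. The main summit of Klf6 lay 328 to 405 bp upstream of the start in all 6 libraries, where those of the other 9 genes lay at most 155 bp from theirs.

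Klf10 (chr15:38291464-38300711, minus strand, 9248 bp) had 2179 and 3159 bp in NR, 2476 and 3699 bp at 30 min, and 3119 and 3486 bp at 2 h. The groups overlapped in each comparison, and within replicate number the lengths were 1.14 and 1.17 times NR at 30 min and 1.43 and 1.10 times at 2 h. The centred log2 change was 0.04 at 30 min (SE 0.15, adjusted p = 0.999), which was -0.32 under quantile normalization, and -0.16 at 2 h (adjusted p = 0.686), which was 0.32 without centring. The peak stayed in the first part of the gene, reaching 1350 to 1920 bp downstream of the start. It lies within the long noncoding RNA gene Gm35248.

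SRF binds CArG boxes with ternary complex or MRTF cofactors and drives both immediate early and actin cytoskeleton genes, its own gene among them. At Srf (chr17:46546839-46556162, minus strand, 9324 bp) the called length was 1532 and 1882 bp in NR, 1765 and 2779 bp at 30 min, and 1848 and 2137 bp at 2 h. The groups overlapped in each comparison, and within replicate number 30 min was 1.15 and 1.48 times NR and 2 h was 1.21 and 1.14 times. After centring the log2 change was 0.21 at 30 min (SE 0.13, adjusted p = 0.724) and -0.26 at 2 h (adjusted p = 0.469), the last being 0.21 without centring. The peak covered 8.28 to 12.7% of the gene in any library. For 2 h against 30 min the log2 change was -0.47 (SE 0.13, adjusted p = 0.692), where the unadjusted p of 0.0131 was the only one under 0.05 among the 9 genes.

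**Figure D3:**
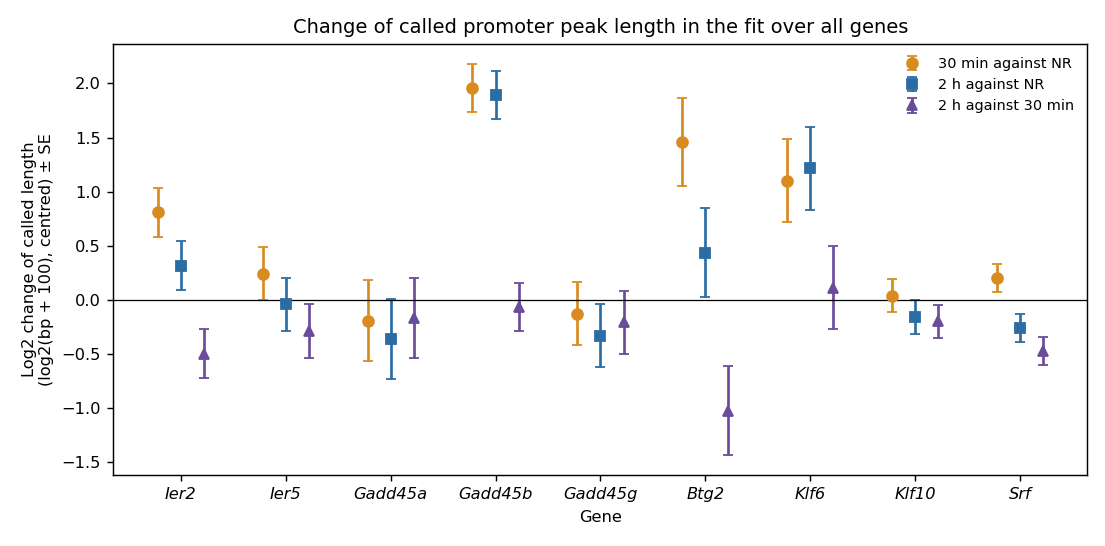
Centred log2 change of called promoter length with its SE from limma, over 6 libraries, for the 9 genes with assigned peaks: circles for 30 min against NR, squares for 2 h against NR and triangles for 2 h against 30 min. Gadd45b has the largest change from NR at both times (1.96 and 1.90), Btg2 and Klf6 have wider errors, and no gene passed the adjusted threshold.

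Over the 9 tested genes, 0 passed at 30 min against NR, where 0.232% of 9908 genes were called longer and 0.0101% shorter. At an unadjusted p under 0.05, 4 were longer (Gadd45b, Btg2, Ier2 and Klf6), where 5.85% of all genes were, and 0 were shorter (2.15% of all genes). In bp, 5 of the 9 (those 4 and Ier5) had both 30 min libraries above both NR libraries, where 11.5% of all genes did, and 0 had both below (1.16%). The median centred log2 change of the 9 was 0.24, beside -0.04 over all genes. At 2 h against NR, 0 passed, where 0.373% of genes were called longer and 0.0606% shorter. At an unadjusted p under 0.05, 2 were longer (Gadd45b and Klf6), where 7.95% of all genes were, and 0 were shorter (4.65%). In bp, 6 of the 9 lay above NR without overlap, where 52.3% of all genes did, and 0 below it (2.09%); the median was -0.04, beside -0.03 over all genes. The 6 of 9 in bp is read against that background of 52.3%. Called length was greater at 2 h across the genome, and centring removed a log2 shift of 0.48 at 2 h and 0.16 at 30 min, both against NR. Both comparisons share the NR libraries.

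For 2 h against 30 min, 0 of the 9 passed, where 0% of all genes were called longer and 0% shorter. At an unadjusted p under 0.05, 0 of the 9 were longer (2.26% of all genes) and Srf was shorter (2.92%). Only Gadd45g lay above 30 min without overlap in bp, where 17% of all genes did, and 0 below it (0.727%). The median of the 9 was -0.20, beside -0.01 over all genes. The change was negative in 8 of the 9, of which Ier5, Gadd45a, Gadd45b, Gadd45g and Klf10 were positive without centring, which removed a log2 shift of 0.32.

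Several of these genes lay whole inside 1 peak. In all 6 libraries this was so at 3 of the 10 (Ier2, Ier3 and Gadd45g), all among the 7 that span at most 5000 bp, where 1.64% of 1344 protein-coding genes of that size and 0.31% of all 9341 were covered. Gadd45b was covered in the 4 restimulated libraries, Klf6 in 2 of them and Btg2 in 1. Gadd45a, Klf10 and Srf were covered in none.

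**Figure D4:**
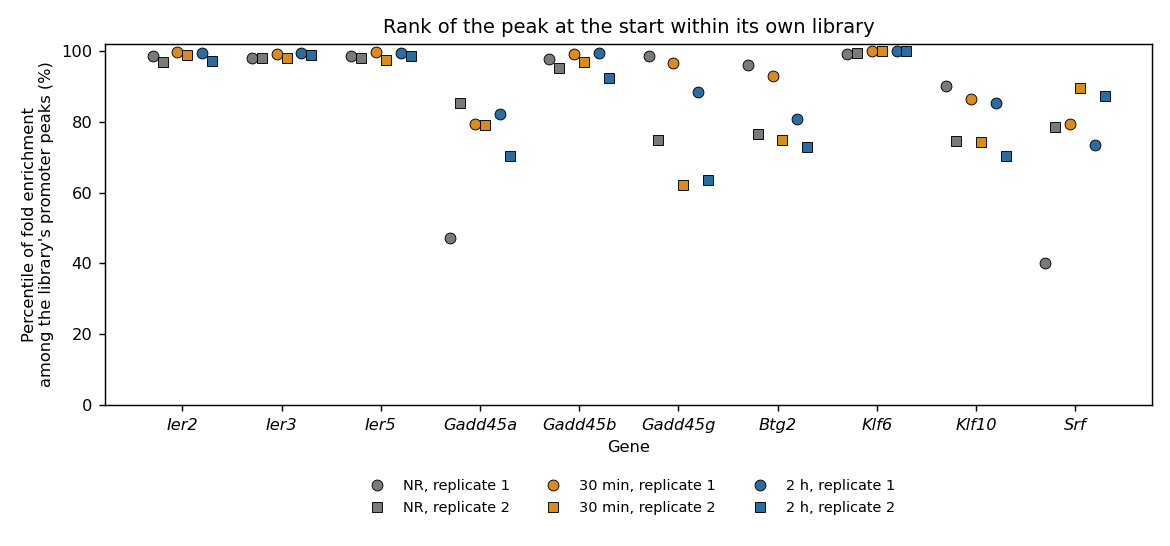
Percentile of the fold enrichment of the peak at each gene's start among all promoter peaks of the same library (axis from 0 to 100%), for replicate 1 (circles) and replicate 2 (squares) of NR, 30 min and 2 h. Klf6, Ier2, Ier3 and Ier5 lie above 96% in every library, while Gadd45a and Srf range down to 47.3% and 40.0%.

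The genes also differed in the rank of the authors' fold enrichment within a library. Fold enrichment is a ratio to local background, so its rank is not a rank of the signal itself. These ranks belong to lists of different length, so they describe each library and were not compared between groups. Klf6 ranked 84 and 71 in the NR libraries, 8 and 12 at 30 min, and 5 and 8 at 2 h, out of 9074 to 10680 promoter peaks. Ier2 lay between the 96.8 and 99.8 percentiles of its libraries, Ier3 between 98.0 and 99.5, Ier5 between 97.4 and 99.7, and Gadd45b between 92.3 and 99.4. Gadd45b was high in NR as well, at the 97.8 and 95.3 percentiles. Btg2 lay between 72.9 and 96.2, Klf10 between 70.3 and 90.2, and Gadd45g between 62.0 and 98.6. In replicate 1 of NR, 30 min and 2 h Gadd45g lay at 98.6, 96.7 and 88.6. In replicate 2 it lay at 74.9, 62.0 and 63.5. The pileup of Gadd45g (the signal at the summit) was the highest of these genes in every library. It was 170 and 300 in NR, 241 and 380 at 30 min, and 348 and 378 at 2 h, in each library's own units. In replicates 1 a fragment is 1 unit and in replicates 2 it is 0.577 to 0.707 units. Depth differs as well, so pileups were not compared between groups. In 2 h replicate 2, Gadd45g had a fold enrichment of 22.3 at its pileup of 378, and Gadd45a had 24.7 at a pileup of 113. Gadd45a ranged between 47.3 and 85.3 and Srf between 40.0 and 89.6, both lowest in NR replicate 1, the shallowest library.

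Other genes of these pathways were set beside these values. Their lists were chosen with earlier results of these data known, so they are no independent scale. Of 38 other immediate early genes tested (39 listed), 5 were longer and 0 shorter at 30 min against NR, and the same counts held at 2 h. Over all genes 0.232% were longer and 0.0101% shorter at 30 min, and 0.373% and 0.0606% at 2 h. The median log2 change of the 38 was 0.89 at 30 min and 0.79 at 2 h, against -0.04 and -0.03 over all genes. It was -0.11 for 2 h against 30 min, where 0 passed. Egr3 and Egr2, zinc finger factors of the early growth response family, had 14771 and 17173 bp (Egr3) and 7853 and 12325 bp (Egr2) at 30 min and were listed with no peak in NR. Nr4a3, an orphan nuclear receptor, had 14671 and 27123 bp at 30 min against 479 and 628 bp in NR (log2 change 4.79, SE 0.18, adjusted p = 0.00133). Egr1 had 7114 and 13069 bp at 30 min against 529 and 976 bp in NR (log2 change 3.41, SE 0.19, adjusted p = 0.00735). The other gene past the threshold, Nfkbia, the inhibitor of NF-kB, was named after its values were seen and had a log2 change of 2.34 at 30 min (SE 0.23, adjusted p = 0.0422) and 2.21 at 2 h (adjusted p = 0.0350). Gadd45b, at 1.96 and 1.90 with an SE of 0.22, missed that threshold.

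Of 13 KLF and BTG/TOB relatives tested (15 listed), 0 passed in any comparison, with a median log2 change of -0.07 at 30 min and 0.23 at 2 h against NR, and -0.14 for 2 h against 30 min. Of 17 SRF cofactors and cytoskeletal SRF targets (19 listed), 0 passed, with medians of 0.68 at 30 min and 0.08 at 2 h against NR, and -0.23 for 2 h against 30 min. Of 23 p53 and stress response genes (25 listed), 0 passed, with medians of 0.20 at 30 min and 0.13 at 2 h against NR, and -0.14 for 2 h against 30 min. Over all genes the medians of these comparisons were -0.04, -0.03 and -0.01.

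By Euclidean distance over the 6 libraries, the genes whose centred profile was most like the mean of the 9 genes, among 7401 others with a peak in all 6, were Kansl1l (0.0764), Cd247 (0.136), Zfp1 (0.152), BC003965 (0.169) and Mettl4 (0.190). The mean profile, as log2 distance from each gene's own mean, was -0.36 and -0.25 in NR, 0.30 and 0.31 at 30 min, and -0.04 and 0.03 at 2 h. It averages unlike genes: Gadd45b was at 0.84 in 30 min replicate 1 and -1.54 in NR replicate 2, and Klf10 stayed between -0.16 and 0.19.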

How the data were processed

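Peaks were called separately in each of the 6 polymerase II libraries. The deposited values are, per the file headers, a −log10 p-value, a −log10 q-value, a fold enrichment (the ratio of a peak to its local background) and a pileup (the signal, or coverage, at the summit). Promoter tables hold peaks within 1000 bp of a start, each assigned by the authors to 1 gene; summit lists hold all peaks. The submitters' processing notes name mm10 as build and the tools BWA 0.7.13, Picard 1.119 and MACS2 2.1.0, with no role or order. The 3 H3K36me3 libraries and 1 input library were not analysed here.

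Called length per gene was taken as log2(bp + 100), which understates changes of short peaks, and the median over genes with a peak in all 6 was subtracted within each library. A separate called peak that was not a promoter peak added no length, while the same DNA counted where it was called as part of a promoter peak. The 9908 of 10419 genes that had peaks in 2 or more libraries were fitted with limma 3.58.1 in R 4.3.3 (lmFit, eBayes with a trend, all 6 libraries, group as the only term, two-sided) with Benjamini-Hochberg adjustment and a threshold of 0.05, tested on simulated data. A permutation of 2 libraries against 2 cannot go under p = 0.333. Depth was read from the lowest background that the fold enrichments imply, in fragments; 1 fragment is 1 pileup unit in replicates 1 and 0.577 to 0.707 units in replicates 2, where the deposited pileups were scaled. Read depth itself is not in these lists.

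The labels name replicates without saying if animals or cultures were separate, so the spread behind each p-value is that of these libraries and may be technical. Same-numbered libraries deviated together from their group means (r across genes 0.442 for NR and 30 min, 0.269 for NR and 2 h, 0.408 for 30 min and 2 h). The number also goes with depth, replicate 1 being the shallower library of each group. Pairing and depth therefore cannot be told apart by these correlations. All 10 genes are named whatever their values; of each other list, the 4 with the largest change past the threshold per comparison. Some marker genes are not reported here. Genes and lists were chosen with earlier results of these data known. Positions are mm10, and promoter sequences are RefSeq's. Alternatives changed the pseudocount, gene filter, centring, peak assignment, peak threshold, measure, model and libraries.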

Additional observations from a re-analysis of the deposited data

How the results depend on the processing

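In 2 of 21 alternative settings at 30 min against NR and 8 of 21 at 2 h against NR, Gadd45b passed the threshold; its adjusted p ran from 0.0280 to 0.894 and from 0.0166 to 0.844, highest for the number of summits, which does not measure length. No other gene of the 10 passed in any of 510 values, the lowest adjusted p being 0.161. With the replicate number as a block the counts over all genes were 18 longer and 1 shorter at 30 min, 28 and 5 at 2 h and 0 and 0 for 2 h against 30 min, Gadd45b had an adjusted p of 0.0633 and 0.0510 against NR, and no call of the 9 tested genes changed. The 2 libraries a group and depths that differ within every group limit all of these values.

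Over all genes, at 30 min against NR (23 longer, 1 shorter), the number of summits gave 131 and 76, the 4 libraries alone 13 and 3, and a pseudocount of 1000 bp 7 shorter; both assignments by position gave 0 shorter, and eBayes without a trend 10 shorter. At 2 h against NR (37 longer, 6 shorter) a pseudocount of 1000 bp gave 93 and 19, quantile normalization 59 and 20, lists of equal length 71 and 15, the number of summits 237 and 81, the 4 libraries alone 148 and 25, and no trend 21 and 13. No centring and whole peaks at the start gave 1 shorter, assignment within the gene span 0, and stricter peaks 2. For 2 h against 30 min (0 and 0) a pseudocount of 1000 bp gave 5 longer and 3 shorter, the number of summits 169 and 65, a peak in at least 4 libraries 1 shorter, quantile normalization 1, lists of equal length 4, and no trend 4. The count of the 9 genes called longer (0) became 1, Gadd45b, at 30 min with a pseudocount of 1000 bp, and at 2 h with a pseudocount of 1000 bp, no filter, a peak in at least 4 libraries, no centring, lists of equal length or the 4 libraries alone. The cause was not tested.

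Leaving out each library in turn gave 4 to 53 longer and 0 to 175 shorter genes at 30 min, 3 to 145 and 0 to 41 at 2 h, and 0 to 181 and 0 to 25 for 2 h against 30 min, and 0 to 1 of the 9 genes called longer at either time against NR. The largest counts came without 30 min replicate 1 (53 longer at 30 min) or 30 min replicate 2 (145 and 181 longer, 175, 41 and 25 shorter), and without NR replicate 1, 2 h replicate 1 or 2 h replicate 2 at most 9 were longer in either comparison with NR. When a group has 1 library left, that library is assumed to vary like the others.

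Log2 changes that took the opposite sign, none past the threshold, were as follows. Without centring they were 0.032 for Gadd45g at 30 min; 0.44 for Ier5, 0.12 for Gadd45a, 0.14 for Gadd45g, 0.32 for Klf10 and 0.21 for Srf at 2 h; and 0.031 for Ier5, 0.15 for Gadd45a, 0.25 for Gadd45b, 0.11 for Gadd45g and 0.12 for Klf10 for 2 h against 30 min. Under quantile normalization they were -0.31 for Ier5 and -0.32 for Klf10 at 30 min, -0.13 for Ier2 at 2 h and 0.024 for Gadd45b for 2 h against 30 min. Assignment within the gene span gave -0.032 for Klf10 and -0.10 for Srf at 30 min, -0.22 for Ier2 and -0.29 for Ier3 at 2 h, and -0.19 for Ier3 for 2 h against 30 min. The number of summits gave 0.50 for Gadd45a at 30 min, 0.50 for Srf at 2 h, and 0.37 for Btg2 and 0.50 for Srf for 2 h against 30 min. A pseudocount of 1000 bp gave 0.087 for Ier5 at 2 h and 0.038 for Gadd45b for 2 h against 30 min. With 1 library left out the ranges that crossed 0 were -0.038 to 0.53 for Ier5, -0.57 to 0.19 for Gadd45a, -0.44 to 0.18 for Gadd45g and -0.070 to 0.15 for Klf10 at 30 min; -0.16 to 0.074 for Ier5, -0.74 to 0.022 for Gadd45a and -0.0085 to 0.88 for Btg2 at 2 h; and -0.57 to 0.0040 for Ier5, -0.48 to 0.14 for Gadd45a, -0.23 to 0.11 for Gadd45b, -0.52 to 0.11 for Gadd45g and -0.30 to 0.53 for Klf6 for 2 h against 30 min.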

Other observations

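Summits outside the promoter peaks assigned to these genes lay near several of them. Those inside a gene span were counted in the alternative measure, the number of summits. A summit 4384 to 4592 bp past the end of Ier2 was present in 5 libraries, with a −log10 q of 20.6 and 128 in NR, 22.8 in 30 min replicate 1, and 39.1 and 155 at 2 h. In 30 min replicate 2 the 10556 bp Ier2 peak ran past that position. A peak 566 to 636 bp past the end of Srf was assigned to the neighbouring gene Cul9 in 4 libraries, both of NR and replicate 2 of 30 min and 2 h, with a −log10 q of 5.57 to 13.3. Klf10 had summits 6692 and 7159 bp from its start in 30 min replicate 2 only, with a −log10 q of 7.20 and 3.60. In 2 h replicate 1, Btg2 held 3 weak summits 1973 to 2779 bp from its start, with a −log10 q of 2.66 to 6.92. Each −log10 q is the authors' value for that peak in its own list.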
